A study of Mus musculus with 4 samples.

Results

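The insulin-like growth factor (IGF) ligand Igf1, its receptor Igf1r, the 6 binding proteins Igfbp2 to Igfbp7 and the receptor substrates Irs1 and Irs2 were examined in tumors labelled as expressing or not chemerin. These 10 genes were chosen by name, for their place in the IGF system, among the 47729 genes listed for every tumor pool. The tumors were grafts of Lewis lung carcinoma (LLC) cells, a mouse lung carcinoma line, placed under the skin of the back in C57BL/6 mice, the strain of origin of the line, and collected on day 5. The LLC group came from cells labelled wild type, and the LLC-Chem group from cells transfected with pEFIN plasmids that encode a bioactive form of chemerin. Each group comprised 2 pools of 3 tumors, and no age or sex is given in the labels. The transfected cells were collected as individual clones after G418 selection, so a difference between clones and an effect of chemerin cannot be told apart. The study's text also describes cells carrying the empty vector, whereas the labels name wild type cells for the control group. The tumors contained host cells as well as LLC cells, and in bulk RNA fewer cells of a type and less RNA per cell cannot be told apart.

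Expression was measured by RNAseq and is given in RPM, the reads of a gene scaled to the size of its library. The deposited values moved in steps of about 0.05 RPM. Totals of 28470000 to 33990000 reads per pool were fitted to them, at which a step is wider than 1 read. Rarres2, the gene of chemerin, measured 102.2 and 98.2 RPM in the LLC pools against 105.9 and 105.8 RPM in those labelled LLC-Chem. The difference of 0.08 on the log2 scale was not called (adjusted p = 0.541 from limma). These values do not show the transfected chemerin, so the grouping rests on the labels. Of the epithelial markers, Krt8 and Krt18 carried nearly the whole signal, at 82.75 to 167.1 RPM for Krt8, while Epcam stood at 0 to 0.2 RPM and Cdh1 at 0.45 to 1.4 RPM. A gene was called when its adjusted p was under 0.05 in limma on log2(RPM + 0.5), tested over the 13694 genes whose mean reached 1 RPM. Fold changes are given on that log2 scale as LLC-Chem over LLC. With 2 pools per group an exact permutation test of a single gene cannot go below p = 0.33, so the adjusted p-values rest on a spread shared across genes.

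IGF1 binds a receptor tyrosine kinase, the product of Igf1r, which phosphorylates the insulin receptor substrates IRS1 and IRS2. The substrates recruit phosphoinositide 3-kinase and thereby activate AKT, a pathway that promotes growth and survival. In the extracellular space, most IGF is held by IGF binding proteins, which limit or prolong its access to the receptor and are released from it by proteases. IGFBP7 is an outlier of the family, with a low affinity for IGF, and is known as a protein of the vascular basement membrane. In tumors, both carcinoma cells and stromal cells can produce parts of this system.

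Of the 9 members that reached the minimum level, 2 were called higher (Igf1r and Irs2) and 1 was called lower (Igfbp7) in LLC-Chem tumors. The 3 calls are 33.3% of the tested members, beside 23.0% of all genes tested in either direction, 9.54% called higher and 13.5% called lower. Both LLC-Chem pools lay above both LLC pools for Igf1r, Irs1, Irs2 and Igfbp4, an order shown by 33.1% of all genes tested. Both lay below for Igf1, Igfbp3 and Igfbp7 among the tested members, an order shown by 39.3% of all genes tested. Igfbp5 and Igfbp6 overlapped between the groups, and Igfbp2 was too low to be tested. The median fold change over the 9 tested members was -0.53, beside -0.04 over all genes tested. This median is the value of Igfbp6, which turned to 0.25 without LLC pool 2, so little can be read from its sign.

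**Figure D1:**
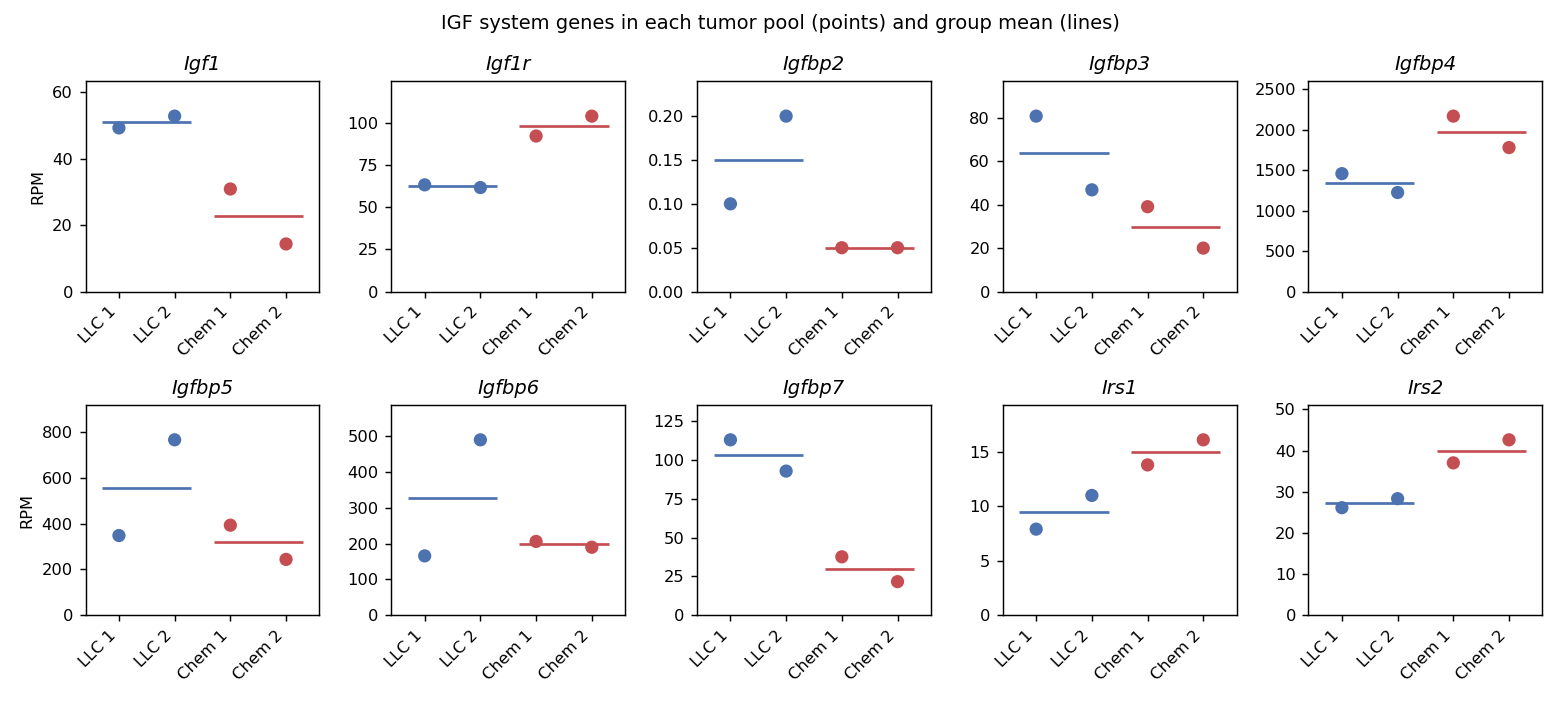
RPM of each of the 10 genes (vertical axes from 0, one panel per gene) in the 2 LLC and the 2 LLC-Chem pools; points are pools and horizontal lines are group means. Igf1r, Irs1, Irs2 and Igfbp4 sit higher in both LLC-Chem pools, Igf1, Igfbp3 and Igfbp7 lower, whereas LLC pool 2 stands above all other pools for Igfbp5 and Igfbp6.

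The receptor and its substrates were all at higher values in LLC-Chem tumors. Igf1r (ENSMUSG00000005533, GRCm38 chr7:67952827-68233668, plus strand), the receptor gene, measured 63.32 and 61.72 RPM in the LLC pools against 92.3 and 104.1 RPM in the LLC-Chem pools. The LLC pools lay close together, and both LLC-Chem pools stood above them. Means were 62.5 ± 1.13 RPM in LLC, compared with 98.2 ± 8.34 RPM in LLC-Chem tumors (SD, n = 2 pools in each group). The difference of 0.64 (1.56-fold, SE 0.11, 95% interval 0.38 to 0.91) passed the test, with an adjusted p of 0.0187 from limma.

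Irs2 (ENSMUSG00000038894, chr8:10984681-11008458, minus strand), the insulin receptor substrate with a large role in liver and beta cells, measured 26.14 and 28.33 RPM in LLC against 37.03 and 42.63 RPM in LLC-Chem tumors. The groups did not overlap, and their means were 27.2 ± 1.55 and 39.8 ± 3.96 RPM (SD, n = 2). The difference was 0.54 (1.45-fold, SE 0.13, 95% interval 0.22 to 0.86), with an adjusted p of 0.0382 from limma. This call was lost when the variance trend was left out of limma (adjusted p = 0.0605).

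Irs1 (ENSMUSG00000055980, chr1:82233101-82291416, minus strand), the substrate that predominates in muscle and many carcinoma lines, had the lowest mean level per kb of exon among the tested members in each group. Its values were 7.9 and 10.99 RPM in LLC against 13.79 and 16.09 RPM in LLC-Chem tumors. The groups did not overlap, and the difference of 0.65 (SE 0.21, 95% interval 0.13 to 1.17) ranged from 0.42 without LLC pool 1 to 0.88 without LLC pool 2. It did not pass the test (adjusted p = 0.0737 from limma), and DESeq2 on reads estimated from the steps gave an adjusted p of 0.045. Irs1 shares 30.9% of its exon bases with Gm9747, Igfbp7 7.03% with Polr2b and Irs2 2.56% with 9530052E02Rik, each on the opposite strand. Whether strand was used in counting is not given in the sources used here, so that reads in these stretches are uncertain.

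The promoters of these genes are shown because the receptor gene, both substrates and Igfbp7 include all 3 called members. Each line gives the 250 bases before the RefSeq start of the gene on build GRCm38.p6, read 5′ to 3′ on the strand of the gene. The intervals are chr7:67952007-67952256 (plus) for Igf1r, chr8:11008930-11009179 (minus) for Irs2, chr1:82291440-82291689 (minus) for Irs1 and chr5:77408046-77408295 (minus) for Igfbp7. Capitals mark ACGTG or its reverse complement CACGT, the core of the hypoxia response element, and CACGTG, an E-box that holds this core on both strands.
Igf1r: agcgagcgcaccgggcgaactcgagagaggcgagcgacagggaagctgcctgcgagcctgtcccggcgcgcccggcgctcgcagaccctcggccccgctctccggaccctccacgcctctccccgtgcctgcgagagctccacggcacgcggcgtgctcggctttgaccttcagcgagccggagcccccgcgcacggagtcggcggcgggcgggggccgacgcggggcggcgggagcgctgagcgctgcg
Irs2: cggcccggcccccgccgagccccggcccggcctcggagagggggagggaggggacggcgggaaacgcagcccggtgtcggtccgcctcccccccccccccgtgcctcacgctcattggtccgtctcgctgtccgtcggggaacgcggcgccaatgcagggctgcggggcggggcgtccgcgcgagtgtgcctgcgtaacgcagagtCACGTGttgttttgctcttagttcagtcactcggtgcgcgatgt
Irs1: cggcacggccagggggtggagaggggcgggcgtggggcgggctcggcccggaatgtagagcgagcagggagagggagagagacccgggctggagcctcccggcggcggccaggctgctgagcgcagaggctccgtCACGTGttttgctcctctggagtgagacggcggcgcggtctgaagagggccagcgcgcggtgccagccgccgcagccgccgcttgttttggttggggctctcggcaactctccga
Igfbp7: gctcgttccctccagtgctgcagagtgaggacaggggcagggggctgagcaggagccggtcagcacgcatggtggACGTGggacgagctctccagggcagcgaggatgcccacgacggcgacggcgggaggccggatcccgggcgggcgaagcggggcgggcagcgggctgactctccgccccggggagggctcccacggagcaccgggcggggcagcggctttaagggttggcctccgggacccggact
The E-box began 44 bases before the RefSeq start of Irs2 and 115 bases before that of Irs1. The gene coordinates printed above for Igf1r, Irs2 and Irs1 come from GENCODE, whose starts lie downstream of these RefSeq starts. Igfbp7 held the core without the E-box, 175 bases before its start, and the window of Igf1r held neither. The core was found in 4 of the 10 members, the fourth being Igfbp2, and in 16.6% of 32851 promoter windows of the same length. The E-box was found in 6.02% of all windows. The shown windows contained 26 to 42 CpG dinucleotides, beside a median of 6 over all windows, and both motifs contain a CpG. The FOXO motif GTAAACA (either strand) was in 0 of the 10 members and in 3.17% of all windows, and TATAAA (either strand) was in those of Igfbp4 and Igfbp6 and in 12.4% of all windows. These matches describe the letters of the windows and were not tested as binding sites.

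Igf1 (ENSMUSG00000020053, chr10:87858265-87937042, plus strand), the ligand, was at lower values in LLC-Chem tumors. Its level was 49.27 and 52.82 RPM in the LLC pools against 30.88 and 14.34 RPM in the LLC-Chem pools. The LLC pools differed 1.07-fold and the LLC-Chem pools 2.15-fold, a gap reached by 1.12% of the genes tested in that group. Means were 51.0 ± 2.51 and 22.6 ± 11.7 RPM (SD, n = 2), a difference of -1.26 (0.419-fold, SE 0.34, 95% interval -2.11 to -0.40). It missed the threshold (adjusted p = 0.0508 from limma) and was called by DESeq2 on reads estimated from the steps (adjusted p = 0.00583). The difference was -0.72 without LLC-Chem pool 2 and -1.80 without LLC-Chem pool 1.

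Among the binding proteins, Igfbp7 was called lower and the other 4 tested were not called. Igfbp7 (ENSMUSG00000036256, chr5:77349240-77408041, minus strand) measured 113.1 and 92.95 RPM in the LLC pools against 37.68 and 21.69 RPM in the LLC-Chem pools. Each LLC-Chem pool lay well below both LLC pools, although the LLC-Chem pools also differed 1.74-fold from each other. Means were 103 ± 14.3 and 29.7 ± 11.3 RPM (SD, n = 2). The difference of -1.82 (0.282-fold, SE 0.27, 95% interval -2.49 to -1.16) was the largest among the tested members and had an adjusted p of 0.0153 from limma.

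Igfbp3 (ENSMUSG00000020427, chr11:7206086-7213923, minus strand), the main carrier of IGF in the circulation, measured 80.66 and 46.77 RPM in LLC against 39.03 and 19.99 RPM in LLC-Chem tumors. The groups did not overlap, yet the lower LLC pool and the higher LLC-Chem pool were close. The difference of -1.12 (SE 0.38, 95% interval -2.07 to -0.17) did not pass the test (adjusted p = 0.0838 from limma), and DESeq2 on reads estimated from the steps gave an adjusted p of 0.0152. The difference was -0.73 without LLC pool 1, -0.65 without LLC-Chem pool 2 and -1.60 without LLC-Chem pool 1.

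Igfbp4 (ENSMUSG00000017493, chr11:99041244-99054392, plus strand), an inhibitor of IGF that is cleaved by the protease PAPP-A, had the highest mean level per kb of exon in each group, although in LLC pool 2 Igfbp6 lay above it. It was the only binding protein with higher values in both LLC-Chem pools, at 2168.0 and 1779.4 RPM, against 1457.3 and 1224.4 RPM in the LLC pools. The difference of 0.56 (1.47-fold, SE 0.19, 95% interval 0.08 to 1.03) did not pass in limma (adjusted p = 0.0856). It was called on reads estimated from the steps by edgeR (adjusted p = 0.0482) and DESeq2 (adjusted p = 0.0023).

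Igfbp5 (ENSMUSG00000026185, chr1:72857932-72874884, minus strand), which binds extracellular matrix, measured 348.3 and 766.4 RPM in LLC against 393.5 and 244.1 RPM in LLC-Chem tumors. Igfbp6 (ENSMUSG00000023046, chr15:102144362-102149511, plus strand), which prefers IGF2 to IGF1, measured 165.5 and 489.0 RPM in LLC against 205.8 and 189.6 RPM in LLC-Chem tumors. For both genes LLC pool 2 stood above the other 3 pools and LLC pool 1 lay within or below the LLC-Chem values. The LLC pools differed 2.2-fold for Igfbp5 and 2.95-fold for Igfbp6, gaps reached by 2.01% and 0.686% of the genes tested. The differences were -0.74 (95% interval -1.76 to 0.29) for Igfbp5 and -0.53 (95% interval -1.72 to 0.66) for Igfbp6, with adjusted p-values of 0.225 and 0.437 from limma. Without LLC pool 1 they became -1.30 for Igfbp5 and -1.31 for Igfbp6. Without LLC pool 2 they became -0.17 for Igfbp5 and 0.25 for Igfbp6, the latter with its sign turned.

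Igfbp2 (ENSMUSG00000039323, chr1:72824503-72852474, plus strand), the neighbour of Igfbp5 on chromosome 1 and a binding protein of fetal tissues and many carcinomas, was nearly undetected. Its values were 0.1 and 0.2 RPM in the LLC pools, and 0.05 RPM, a single step, in each LLC-Chem pool. A difference was not detectable at this depth.

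**Figure D2:**
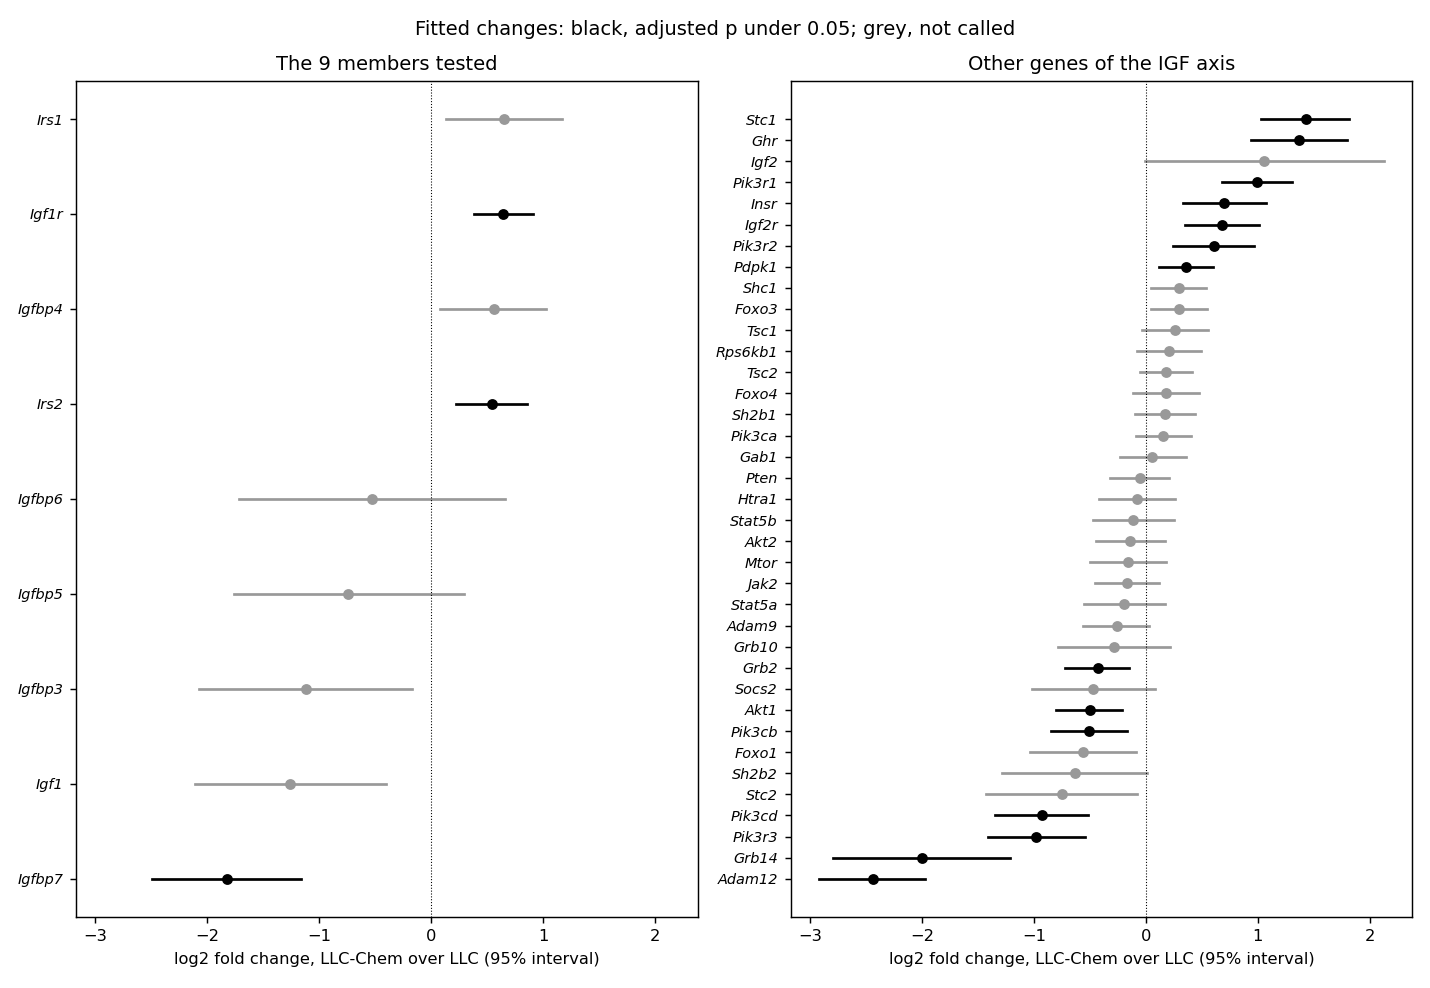
Fold change of LLC-Chem over LLC (horizontal axis, log2 of RPM + 0.5) with its 95% interval for the 9 tested members and 37 of the 38 tested genes of the wider IGF axis; black marks genes called at an adjusted p under 0.05 and grey those not called. Of the members, only Igf1r and Irs2 (to the right of 0) and Igfbp7 (to the left) are black.

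To compare levels between genes, RPM were divided by the length of the merged exons in kilobases. By this level the order in LLC tumors was Igfbp4 (303.6 RPM per kb), Igfbp6 (294.3), Igfbp5 (92.8), Igfbp7 (85.2), Igfbp3 (20.4), Igf1 (5.15), Irs2 (4.31), Igf1r (3.72), Irs1 (1.03) and Igfbp2 (0.0812). Igfbp4 and Igfbp6, and likewise Igfbp5 and Igfbp7, did not differ beyond the spread of the LLC pools, since the SD of Igfbp6 was 205.7 RPM per kb and that of Igfbp5 49.2 RPM per kb. In LLC-Chem tumors Igfbp4 (446.9 RPM per kb) stood clear of Igfbp6 (177.8), and Igfbp7 fell to 24.6 RPM per kb. Igf1r and Irs2 lay at 5.85 and 6.3 RPM per kb in LLC-Chem tumors, above Igf1 at 2.28 RPM per kb, whereas in LLC tumors Igf1 lay above both. The summed level of the binding proteins exceeded those of the ligand and the receptor in every pool on this scale.

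The summed level of Igfbp2 to Igfbp7 was 656.2 and 936.5 RPM per kb in the LLC pools and 785.2 and 638.4 RPM per kb in the LLC-Chem pools, so that the groups overlapped. Igfbp4 provided 50.3% and 29.6% of it in the LLC pools and 62.5% and 63.1% in the LLC-Chem pools. The share of Igfbp7 was 14.3% and 8.21% in the LLC pools and 3.97% and 2.81% in the LLC-Chem pools. The share of Igfbp6 was 47.0% in LLC pool 2 and 22.7% to 26.7% in the other 3 pools. The shares are linked to each other, since they add to a fixed total, and were not tested.

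**Figure D3:**
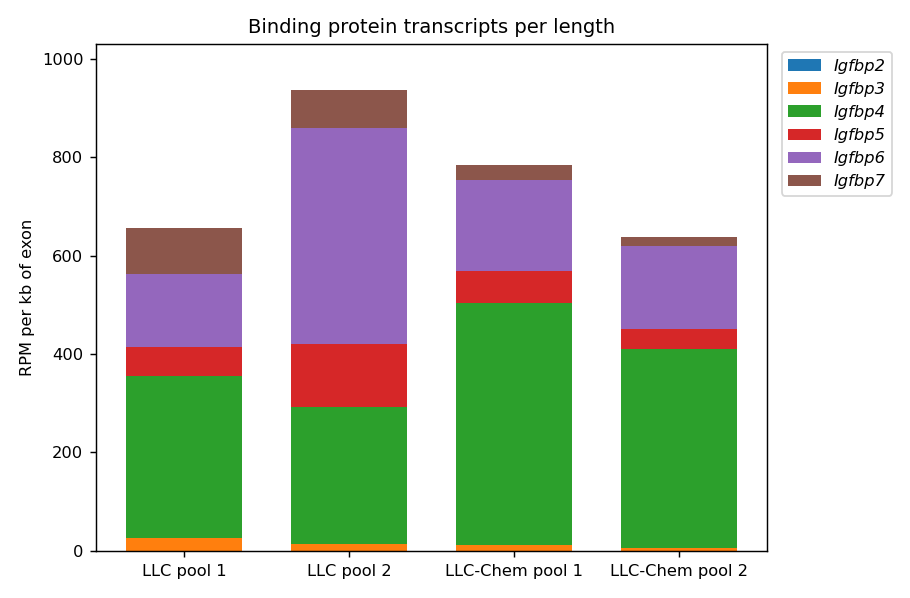
Stacked bars of the level of each IGF binding protein gene (vertical axis, RPM per kb of exon, from 0) in the 2 LLC and 2 LLC-Chem pools. Igfbp4 forms 62.5% and 63.1% of the LLC-Chem bars, and the tall LLC pool 2 bar holds a large Igfbp6 segment, 47.0% of its height.

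Markers of other cells of the tumor were measured in the same pools. All 7 endothelial markers were called lower, and their summed level was 223.1 and 155.9 RPM in LLC against 53.3 and 30.8 RPM in LLC-Chem tumors. Of 7 mural cell markers 5 were called lower, with summed levels of 243.1 and 200.5 RPM in LLC against 77.0 and 53.4 RPM in LLC-Chem tumors. Igfbp7, Igfbp3 and Igf1 were also lower in both LLC-Chem pools, and the part of these cells in that result was not tested.

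Of 8 leukocyte and macrophage markers 3 were called lower, namely Ptprc, Csf1r and Itgam. Their summed level was 4540 and 7510 RPM in LLC against 3809 and 2064 RPM in LLC-Chem tumors, with Lyz2 giving a large part of it. Igf1, which macrophages and fibroblasts can produce, was likewise lowest in LLC-Chem pool 2, as were the endothelial, mural and fibroblast sums. In the LLC pools Igf1 was nearly level, at 49.27 and 52.82 RPM, unlike the leukocyte and macrophage sum. The part of these cells in the values of Igf1 was not tested.

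The fibroblast markers moved in both directions. Col1a1 and Col1a2, the chains of type I collagen, were called lower and Pdgfra, a receptor of fibroblasts, was called higher, while the other 4 markers were not called. The summed level of the list was 12044 and 20750 RPM in LLC against 8749 and 7034 RPM in LLC-Chem tumors. Both collagen genes gave the largest parts in every pool. The sum was highest in LLC pool 2, as were Igfbp5, Igfbp6 and the leukocyte and macrophage sum. Within the list Col1a1, Col1a2, Thy1 and Fap were highest in LLC pool 2, and Pdgfra, Dcn and Lum in LLC-Chem pool 1. The part of fibroblasts or other cells in the values of Igfbp5 and Igfbp6 was not tested.

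The other lists were low or uneven. Summed levels were 2.35 to 5.35 RPM for 5 skeletal muscle markers (1 called higher, with Ckm and Myh4 at 0 in every pool) and 14.3 to 39.9 RPM for 5 adipocyte markers (1 called higher). They were 2.1 to 4.45 RPM for 4 keratinocyte markers and 195.4 to 306 RPM for 4 markers of lung carcinoma epithelium. In the keratinocyte and lung carcinoma lists 3 genes were tested and not called, and of them Krt8 and Krt10 had unadjusted p-values of 0.0151 and 0.043 from limma.

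**Figure D4:**
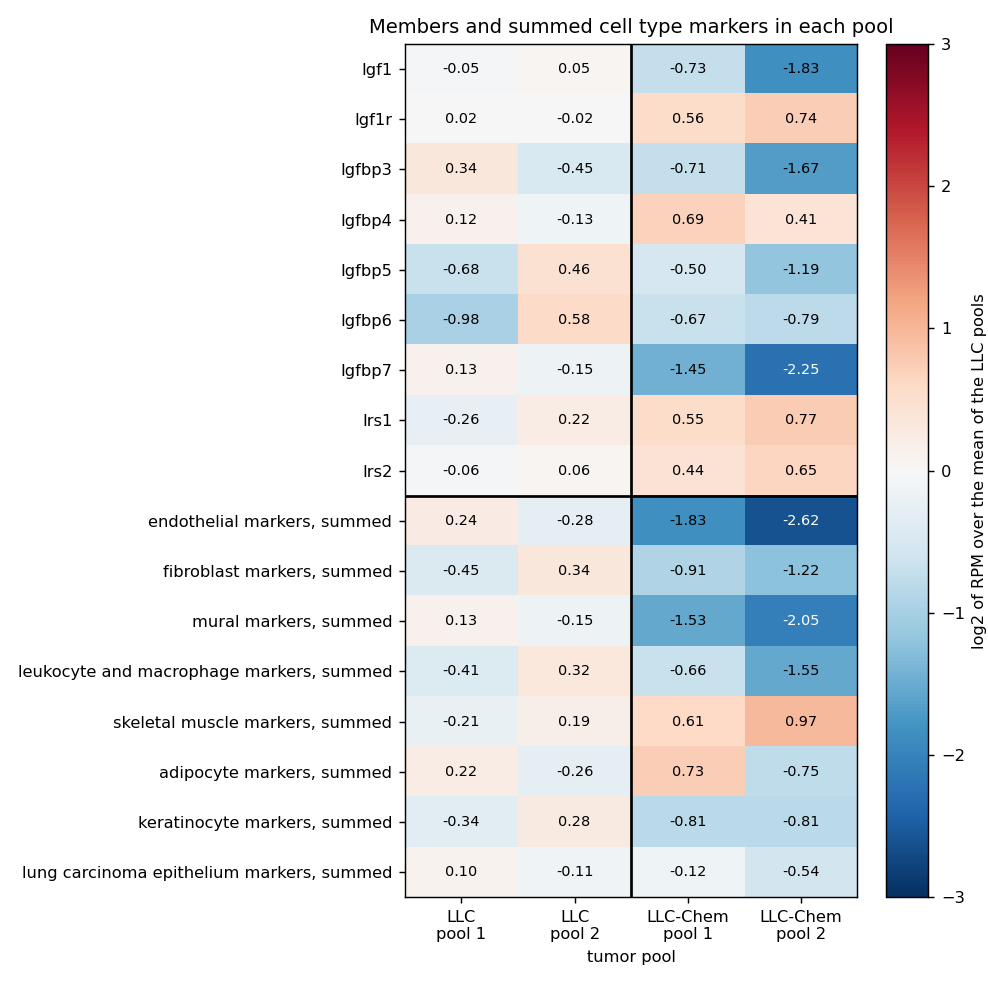
Heat map of log2 of RPM over the mean of the LLC pools, with pools in columns and, in rows, the 9 tested members above the line and the summed markers of 8 cell types below it. Igfbp7 stands at -1.45 and -2.25 in the LLC-Chem pools, the endothelial sum at -1.83 and -2.62 and the mural sum at -1.53 and -2.05, whereas Igf1r, Irs1, Irs2 and Igfbp4 are above 0 in both.

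A wider list of 48 genes of the IGF axis was then described. Of its 38 tested genes 8 were called higher, beside 9.54% of all genes tested, and 7 were called lower, beside 13.5% of all genes tested. Together these calls made up 39.5% of the tested list, beside 23.0% of all genes tested. The median fold change of the tested list was -0.07, beside -0.04 over all genes tested. Igf2, the other IGF ligand, was the only ligand tested and measured 1.5 and 4.05 RPM in LLC against 7.0 and 4.75 RPM in LLC-Chem tumors (adjusted p = 0.124 from limma). Igfbp1, the binding protein of liver, was at 0 in every pool.

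Both tested receptors of the wider list were called higher. Insr, the insulin receptor that can pair with the product of Igf1r, measured 42.93 and 42.23 RPM in LLC against 60.97 and 79.51 RPM in LLC-Chem tumors, a difference of 0.70 (SE 0.15, adjusted p = 0.0306 from limma, and 0.0555 without the variance trend). Igf2r, which clears IGF2 and sorts lysosomal enzymes, measured 215.9 and 261.1 RPM in LLC against 364.0 and 398.4 RPM in LLC-Chem tumors, a difference of 0.68 (SE 0.13, adjusted p = 0.026). Igf1r, Insr and Igf2r thus differed by 0.64 to 0.70, with no overlap between the groups for any of them.

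Of 5 tested genes for proteases of the binding proteins and their inhibitors, Stc1 was called higher and Adam12 lower. Stc1, a stanniocalcin that can inhibit PAPP-A and also belongs to the hypoxia genes listed by the study on these samples, measured 15.59 and 16.89 RPM in LLC against 50.37 and 39.38 RPM in LLC-Chem tumors (1.43, SE 0.16, adjusted p = 0.0117). Adam12, a metalloproteinase reported to cleave IGFBP3 and IGFBP5, measured 40.88 and 57.02 RPM in LLC against 8.9 and 8.05 RPM in LLC-Chem tumors. Its difference of -2.44 (SE 0.19, adjusted p = 0.00727) exceeded that of any member.

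In the growth hormone axis 1 of 5 genes was called. Ghr, the growth hormone receptor, through which hepatic Igf1 is induced, measured 107.2 and 76.86 RPM in LLC against 225.4 and 244.7 RPM in LLC-Chem tumors (1.37, SE 0.17, adjusted p = 0.013). Ghr and Igf1 thus had opposite signs. Of 7 tested adaptors 2 were called lower. Grb14, an inhibitor of the insulin receptor, measured 22.34 and 11.74 RPM in LLC against 3.9 and 3.45 RPM in LLC-Chem tumors (-2.0, SE 0.32, adjusted p = 0.0177). Grb2, which links receptors to RAS, differed by -0.43 (SE 0.11, adjusted p = 0.0472), a call lost with TMM scaling (0.0609), median-of-ratios scaling (0.0533), edgeR (0.0656) and without the variance trend (0.0873).

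Of 18 genes of phosphoinositide 3-kinase, AKT, FOXO and mTOR signalling, 4 were called higher, 4 lower and 10 were not called. The regulatory subunit gene Pik3r1 measured 51.77 and 56.32 RPM in LLC against 98.49 and 118.5 RPM in LLC-Chem tumors (0.99, SE 0.13, adjusted p = 0.0132). Pik3r2, another regulatory subunit gene, was called higher as well (0.61, adjusted p = 0.0389), and Pik3r3 lower (-0.98, adjusted p = 0.0222). The catalytic subunit genes Pik3cb (-0.51, adjusted p = 0.0498) and Pik3cd (-0.93, adjusted p = 0.0223) were called lower. The call of Pik3cb was at the threshold, and was lost with a pseudocount of 1 (0.0506), TMM scaling (0.0507), median-of-ratios scaling (0.0513), edgeR (0.0517) and without the variance trend (0.0695). Without the trend that of Pik3r2 was lost as well (0.0713). Pik3cd predominates in leukocytes, whose markers were also at lower summed values, and the part of these cells was not tested.

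Akt1, a kinase of growth and survival, measured 333.1 and 370.4 RPM in LLC against 263.3 and 232.8 RPM in LLC-Chem tumors (-0.50, SE 0.12, adjusted p = 0.0378). This call was lost with TMM scaling (0.0514), edgeR (0.0583) and without the variance trend (0.068). Pdpk1, the kinase that activates AKT, was called higher with a small difference (0.36, SE 0.10, adjusted p = 0.0478), which did not pass without the trend (0.0908).

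Leaving out 1 pool leaves its group with a single pool, which is assumed to vary like the other group, whose pools alone then give the spread. In these fits 0 of the 13694 genes were called by limma, with 2578 to 4973 genes at an unadjusted p under 0.05. The lost calls therefore say nothing about a single gene, and the fold changes are given instead. Igf1r differed by 0.56 to 0.73 (adjusted p = 0.0743 to 0.191), Irs2 by 0.44 to 0.64 (0.108 to 0.289) and Igfbp7 by -2.22 to -1.43 (0.0548 to 0.148), each without a change of sign.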

How the data were processed

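RNA of 4 pools of LLC tumors was sequenced by the authors, who mapped the reads to GRCm38.p4 with STAR and counted genes with HTSeq, according to the study's methods and the submitters' processing notes. Tool versions and the strand setting are not given in the sources used here. The deposited values are RPM for 47729 genes. Of the values above 0, 99.88% to 99.98% were whole multiples of a step of 0.04997 RPM, within 0.0001 RPM. The step is wider than 1 read at the fitted totals of 28470000 to 33990000 reads, so the share of whole steps does not bear on these totals. Reads were estimated from the steps and totals, and more than 1 read count can share a step.

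Groups and pool numbers were taken from the labels. Since RPM are not counts, limma 3.58.1 in R 4.3.3 (lmFit, eBayes with trend) was applied, two-sided, to log2(RPM + 0.5) of the 13694 genes whose mean reached 1 RPM. The p-values were adjusted over all of these genes by the method of Benjamini and Hochberg. The fit was also run on simulated data with the same spread for every gene, which does not show how often it errs in these data. The study's edgeR was run as an alternative on the estimated reads: edgeR 4.0.16 (quasi-likelihood) called 1551 genes higher and 1600 lower, and DESeq2 1.42.0 called 1876 and 2271. Pools of a group differed beyond sampling noise (chi-square per gene of 75.8 in LLC and 30.9 in LLC-Chem). The labels do not say that pools are separate experiments, and p-values measure only the spread between these pools.

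Named genes are all members and each called gene of the IGF axis list, except 1 that enters the counts and is not reported here. The members and lists were chosen with earlier results of these data known, and support nothing independently. Exon lengths came from the GENCODE annotation of GRCm38, and promoter windows, found for all 10 members, from RefSeq (GRCm38.p6). Alternatives were other pseudocounts, scalings, filters, tools and samples. Plots were drawn with matplotlib 3.10.9 in Python 3.11.15, from tables made with pandas 2.3.3 and numpy 2.4.6.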

Additional observations from a re-analysis of the deposited data

How the results depend on the processing

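The 3 calls among the members became 0 with no filter on low values (1 gene was then called among 26260, with 7397 at an unadjusted p under 0.05), 7 with DESeq2 and 0 to 0 when each pool was left out in turn. Pseudocounts of 0.1 and 1, TMM or median-of-ratios scaling and a minimum of 5 RPM gave 3 calls, limma without trend gave 2 and edgeR gave 4. The 8 genes of the IGF axis called higher became 0 with no filter, 5 without trend and 0 to 0 with a pool left out. The 7 called lower became 4 with TMM, 0 with no filter, 4 without trend, 4 with edgeR and 0 to 0 with a pool left out. The fold change of Igfbp6 ranged from -1.31 to 0.25 when each pool was left out, and turned positive without LLC pool 2. With a pool left out no gene of the whole table was called, so these losses say nothing about a single gene. Over all genes tested limma called 891 higher and 1271 lower without trend, against 1306 and 1848 in the main fit. The cause of the changes with all pools kept was not tested.

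The labels do not say whether pools with the same number were grafted or processed together. Their deviations from the group means had a correlation of -0.14 over the tested genes. With 2 pools per group this correlation cannot decide whether the numbers pair the pools. A limma fit with the replicate block called 3 members, with Irs2 lost (adjusted p = 0.0686) and Igfbp3 gained (0.0224). It called 5 genes of the axis higher and 3 lower. The calls of Insr, Pik3r2, Pdpk1, Pik3r3, Grb2, Pik3cb and Akt1 were lost (0.0514 to 0.113). Over all genes tested this fit called 549 higher and 1064 lower, against 1306 and 1848 in the main fit. A crossed pairing, added after seeing the data, called 5 members, beside 1579 genes higher and 2320 lower over all genes tested. No member changed sign in any of the 11 other settings with all pools. With 2 pools per group, the spread between pools and not depth limits the precision, except for Igfbp2.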

Other observations

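Of the wider IGF axis list, 10 genes stayed below a mean of 1 RPM and entered no comparison. Pappa, the protease of IGFBP4, measured 1.15, 0.4, 0.3 and 0.65 RPM in LLC pools 1 and 2 and LLC-Chem pools 1 and 2, in that order. Pappa2, which cleaves IGFBP5, measured 0.55, 0.6, 1.1 and 1.75 RPM in the same order. Ins1, Irs4 and Igfbp1 were at 0 in every pool.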
